A study of Homo sapiens with 26 samples.

Results

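Long intergenic non-coding RNAs named LINC plus digits were followed through the HCT116 expression and binding data. Members were chosen by name alone, as every locus of the 3 deposited expression tables whose symbols include such a name. This gave 101 LINC symbols of the 6035 symbols in the tables, in 21 of 1965 listed loci for ZBTB24 knockdown, 48 of 1754 for added FLAG-ZBTB24, and 63 of the knockout table, of which 40 of 2243 carried the knockout label DNMT3BKO and 23 of 1112 the label DNMT3BKOshZB. The assembled annotation names 878 LINC genes among 26313 names, so 777 LINC genes were in no table.

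HCT116 is a colorectal cancer cell line. In the RNA-seq, 3 libraries carried a hairpin against ZBTB24 (shZBTB24) and 3 a non-targeting hairpin (shNT), 2 came from lines expressing FLAG-ZBTB24 and 2 from lines expressing the tag alone (FLAG-only), and 1 came from a DNMT3B genetic knockout (3BKO) and 1 from HCT116 with neither tag nor hairpin (wild type). ChIP-seq with the FLAGM2 antibody used 3 libraries for FLAG-ZBTB24, 2 for FLAG-DNMT3B and 2 for the tag alone, each beside an input. Hairpin and FLAG lines were made by lentiviral infection with puromycin selection, and each FLAG line is a single-cell clone, so clone and transgene cannot be told apart there. The knockout likewise stands as 1 library of 1 line. The label DNMT3BKOshZB matches no sample used here, and its rows are described only. Both labels stand in the same table against the same wild type, and they split it by sign: all 2243 rows of DNMT3BKO are higher and all 1112 of DNMT3BKOshZB are lower than wild type. Whether the lower rows are another sample or the lower loci of the knockout is not known, so the direction under either label is fixed by the label and is no result.

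Long intergenic non-coding RNAs are transcribed by RNA polymerase II from stretches between protein-coding genes, and most are spliced, polyadenylated and expressed at low levels in few cell types. A LINC number is a placeholder for a transcript without a known function. Some of these RNAs act on neighbouring genes, some hold protein complexes together, and some have turned out to encode small proteins. ZBTB24 is a zinc finger protein and DNMT3B a de novo DNA methyltransferase, and loss of either causes ICF syndrome. DNMT3B is known to methylate the bodies of transcribed genes.

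The expression tables give 1 pooled FPKM value per group (fragments scaled to transcript length and library size) and no value per library, so no spread between libraries can be shown. A q under 0.05 in the authors' deposited table was taken as a call. The tables list only part of the loci, and why a LINC gene is missing from them is not known. In bulk RNA, fewer expressing cells and less RNA per cell cannot be told apart. Of LINC names in the annotation, 11.5% (95% Wilson interval 9.56% to 13.8%) were in a table, against 23.3% (22.8% to 23.8%) of all other names. Of 11 colon epithelium markers, KRT8 was at 839, KRT18 at 739 and EPCAM at 179 FPKM in wild type. CDH1 was at 27.3, CDX2 at 8.39 and KRT20 at 0.558 FPKM there. For the knockdown 2 of the 11 were listed, and both were called. CDH1 fell to 23.2 FPKM with shZBTB24, against 46.3 FPKM with shNT (q = 0.00493 in the authors' deposited table). CDX2 rose to 18.8 FPKM, against 6.90 FPKM (q = 0.00493 in the authors' deposited table). Their part in the LINC values was not tested. Of 4 leukocyte markers PTPRC, CD3E and CD14 were in no table. The macrophage marker CD68 was listed, at 3.41 FPKM with FLAG-ZBTB24 and 18.0 FPKM with FLAG-only, and at 39.3 FPKM in the knockout and 17.5 FPKM in wild type, neither past the threshold. The locus of MICAL1 and ZBTB24 rose to 155 FPKM with FLAG-ZBTB24, against 17.8 FPKM with FLAG-only (q = 0.0192 in the authors' deposited table). ZBTB24 is not among the listed loci of the knockdown table, so its loss could not be checked there. DNMT3B was not listed under DNMT3BKO, and under DNMT3BKOshZB it was at 6.46 FPKM, against 21.1 FPKM in wild type, without passing (q = 0.676 in the authors' deposited table).

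The promoters of 4 genes are shown first, because their genes recur below. Each is the RefSeq window of 250 bases before to 50 after the start, on build GRCh38.p14, read 5′ to 3′. In the first 3 the capitals mark CpG dinucleotides, the bases that DNMT3B methylates. LINC00998 held the strongest ZBTB24 promoter peaks of any LINC gene in a table, and its window (chr7:113118505-113118804, minus strand) holds 22 CpG. LINC00668 (chr18:6929820-6930119, minus strand) holds 20 CpG and LINC00494 (chr20:48359661-48359960, plus strand) holds 3 CpG. Both had lower values with the knockdown, where only LINC00668 was called (q = 0.0139, against 0.22 for LINC00494, in the authors' deposited table). Both were listed as higher under DNMT3BKO, as every row of that label is. Their levels differed widely between control groups, and the CpG counts are given as description only. In LINC00844 (chr10:58999268-58999567, plus strand) the capitals mark CAGGACCT, a core of the sequence reported for ZBTB24 binding, which begins 81 bases before the start.
LINC00998: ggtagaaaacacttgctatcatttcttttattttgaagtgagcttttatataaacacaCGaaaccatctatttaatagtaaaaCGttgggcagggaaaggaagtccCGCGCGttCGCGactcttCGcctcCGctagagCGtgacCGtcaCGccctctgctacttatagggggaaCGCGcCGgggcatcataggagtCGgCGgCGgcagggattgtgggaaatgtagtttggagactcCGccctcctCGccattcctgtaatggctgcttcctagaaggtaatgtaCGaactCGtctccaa
LINC00668: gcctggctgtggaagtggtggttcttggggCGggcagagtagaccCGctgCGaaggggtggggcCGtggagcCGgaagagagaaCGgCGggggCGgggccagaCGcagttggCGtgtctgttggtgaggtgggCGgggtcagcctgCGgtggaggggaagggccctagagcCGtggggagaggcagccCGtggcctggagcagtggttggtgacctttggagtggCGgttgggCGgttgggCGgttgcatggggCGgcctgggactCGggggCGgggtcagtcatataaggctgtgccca
LINC00494: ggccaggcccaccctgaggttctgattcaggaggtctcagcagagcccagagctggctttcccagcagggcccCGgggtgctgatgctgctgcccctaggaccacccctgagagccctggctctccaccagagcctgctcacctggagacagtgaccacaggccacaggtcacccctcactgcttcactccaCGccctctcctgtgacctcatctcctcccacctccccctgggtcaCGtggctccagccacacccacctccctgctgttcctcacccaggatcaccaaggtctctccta
LINC00844: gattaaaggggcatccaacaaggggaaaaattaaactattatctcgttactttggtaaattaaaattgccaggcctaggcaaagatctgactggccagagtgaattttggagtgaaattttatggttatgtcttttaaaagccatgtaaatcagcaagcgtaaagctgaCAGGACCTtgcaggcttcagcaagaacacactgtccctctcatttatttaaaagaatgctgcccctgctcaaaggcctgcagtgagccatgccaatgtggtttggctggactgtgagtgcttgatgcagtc

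Both strands were searched for CAGGACCT (AGGTCCTG on the other strand). LINC00844 was the only hit among 14 matched LINC promoters with a ZBTB24 peak, and 0 of 70 matched promoters of LINC symbols in the tables held it. Of all 27305 RefSeq promoters, 1.57% did. Only 70 of the 101 symbols and 14 of the 18 peak-bearing genes had a promoter sequence, under 80%, so a comparison of CpG content over the whole set is void and is not given. The letters say nothing of binding outside this window.

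Knockdown of ZBTB24 was followed by a call at 5 LINC loci. LINC00342 and LINC00470 rose, and LINC00341, LINC00668 and LINC00641 fell. These were 2 of 21 LINC loci called higher and 3 of 21 called lower, beside 12.2% and 9.82% of all listed loci of the authors' deposited table, and at this number of loci the shares are read as close to that background. All 21 had an unadjusted p under 0.05 in the authors' deposited table, as did 53.5% of listed loci on the higher and 43.5% on the lower side. No listed locus had a p above 0.0549 there, so this mostly repeats the listing.

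LINC00342, a transcript of 3 exons on chromosome 2 (hg19, 96472246 to 96492729), stood at 6.60 FPKM with shZBTB24 and 1.16 FPKM with shNT. That was the largest rise of a LINC locus, with a log2 fold change of 2.51 and q = 0.00493 in the authors' deposited table. LINC00470 on chromosome 18 (1268312 to 1362006) was at 4.19 FPKM with shZBTB24 and 1.02 FPKM with shNT (log2 fold change 2.04, q = 0.0238 in the authors' deposited table). It also held a ZBTB24 peak inside its body, at 1271143 to 1271273, which is 88422 bp from the start. The peak had a score of 6.68, against a median of 8.26 over all ZBTB24 peaks. No ZBTB24 peak was placed at the promoter or in the body of LINC00342, LINC00341, LINC00668 or LINC00641.

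LINC00641 on chromosome 14 (21668238 to 21675059) was the most abundant called member, at 13.2 FPKM with shZBTB24 and 24.3 FPKM with shNT. It fell by 0.87 on the log2 scale (q = 0.0183 in the authors' deposited table). LINC00341, a single-exon transcript on chromosome 14 (95873604 to 95876427), was at 2.14 FPKM with shZBTB24 and 5.30 FPKM with shNT (log2 fold change -1.31, q = 0.00493 in the authors' deposited table). RefSeq now lists LINC00341 as a synonym of SYNE3, which encodes a protein linking the nuclear envelope to the cytoskeleton. SYNE3, 7404 bp away in the annotation, also fell, with 1.60 FPKM for shZBTB24 and 3.14 FPKM for shNT (log2 fold change -0.97, q = 0.0139 in the authors' deposited table). LINC00668, of 7 exons and reported as raised in several carcinomas, was at 1.44 FPKM with shZBTB24 and 3.78 FPKM with shNT (log2 fold change -1.39, q = 0.0139 in the authors' deposited table).

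**Figure D1:**
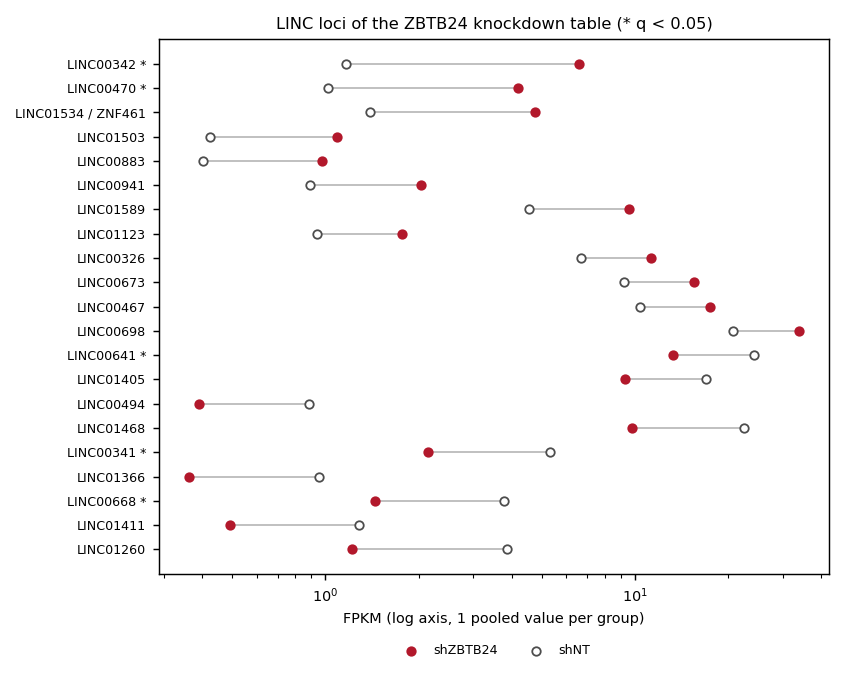
Pooled FPKM (log axis) of the 21 LINC loci in the knockdown table, with filled points for shZBTB24 and open points for shNT; an asterisk marks q under 0.05. The 12 loci at the top had higher values with shZBTB24, led by LINC00342 at 6.60 against 1.16 FPKM, and the 9 at the bottom had lower values.

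The other 16 listed LINC loci did not pass. Of all 21, 12 had higher and 9 lower values with shZBTB24, beside 55.0% higher and 45.0% lower over the authors' deposited table. Their median absolute log2 fold change was 1.20, against 0.77 over all loci of the authors' deposited table, and their levels were lower, with a median of 3.78 FPKM in shNT against 8.07 FPKM over all listed loci. Among the uncalled loci with higher values, the locus shared by LINC01534 and ZNF461 was at 4.74 FPKM with shZBTB24 and 1.39 FPKM with shNT (q = 0.0867 in the authors' deposited table). LINC01534, now named ZNF567-DT, starts head to head with the zinc finger gene ZNF567, 163 bp away. ZNF567 was at 9.91 FPKM with shZBTB24 and 5.46 FPKM with shNT, just short of the threshold (q = 0.0509 in the authors' deposited table). LINC01503 (1.09 and 0.423 FPKM with shZBTB24 and shNT), LINC00883 (0.975 and 0.403 FPKM), now DUBR, and LINC00941 (2.04 and 0.892 FPKM) had q values of 0.347, 0.0979 and 0.11 in the authors' deposited table. LINC01589 was at 9.56 FPKM with shZBTB24 and 4.53 FPKM with shNT, and LINC01123 at 1.77 and 0.939 FPKM. The LINC locus with the highest level was LINC00698, at 33.9 FPKM with shZBTB24 and 20.8 FPKM with shNT (q = 0.215 in the authors' deposited table).

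On the lower side, LINC01260 was at 1.22 FPKM with shZBTB24 and 3.85 FPKM with shNT, the largest difference of that side, without passing (log2 fold change -1.66, q = 0.157 in the authors' deposited table). LINC01468, now named LNCAROD and known as an activator of its neighbour DKK1, a secreted Wnt inhibitor, was at 9.79 FPKM with shZBTB24 and 22.4 FPKM with shNT (q = 0.172 in the authors' deposited table). LINC01405, a transcript annotated near the cardiac myosin light chain gene MYL2, was at 9.26 FPKM with shZBTB24 and 17.0 FPKM with shNT (q = 0.343 in the authors' deposited table). MYL2, 16002 bp away, was on the other side and rose to 18.8 FPKM with shZBTB24 against 6.18 FPKM with shNT (q = 0.00493 in the authors' deposited table). LINC01411 (0.49 and 1.29 FPKM with shZBTB24 and shNT), LINC01366 (0.363 and 0.95 FPKM) and LINC00494 (0.391 and 0.882 FPKM) were low in both groups and did not pass.

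Added FLAG-ZBTB24 gave no call at a LINC locus. At q under 0.05 in the authors' deposited table, 0 of 48 LINC loci passed in either direction, where 0.228% of all listed loci were called higher and 0.342% lower. At an unadjusted p under 0.05, 1 LINC locus was higher and 2 were lower in the authors' deposited table, beside 3.48% and 6.44% of listed loci. Of the 48, 21 had higher and 27 lower values with FLAG-ZBTB24, beside 47.3% higher and 52.7% lower over the table.

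LINC00698 had the largest difference, at 4.38 FPKM with FLAG-ZBTB24 and 27.4 FPKM with FLAG-only (log2 fold change -2.64, unadjusted p = 0.00065, q = 0.0916 in the authors' deposited table). The other members with an unadjusted p under 0.05 in the authors' deposited table were LINC00672, at 2.61 FPKM with FLAG-ZBTB24 and 1.13 FPKM with FLAG-only (p = 0.0498), and the locus of DUXAP10 and LINC01296, at 2.29 and 6.74 FPKM (p = 0.0369). RefSeq now lists LINC00672 as the protein-coding gene LASP1NB and LINC01296 as the pseudogene DUXAP9, whose near-identical copies can split reads. LINC01405 was at 6.03 FPKM with FLAG-ZBTB24 and 19.6 FPKM with FLAG-only, and its neighbour MYL2 at 0.486 and 1.55 FPKM, neither past the threshold (q = 0.902 and 0.836 in the authors' deposited table). LINC01023 was at 0.221 FPKM with FLAG-ZBTB24 and 0.949 FPKM with FLAG-only (q = 0.967 in the authors' deposited table).

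Of the other large differences on the lower side, LINC01237 (0.651 and 2.04 FPKM with FLAG-ZBTB24 and FLAG-only), LINC01399 (0.357 and 1.08 FPKM), LINC00882 (0.408 and 1.1 FPKM) and LINC01186 (0.777 and 1.71 FPKM) did not pass (q = 0.997 for each in the authors' deposited table). The higher side was led by LINC00672, followed by LINC01590 (0.64 and 0.281 FPKM with FLAG-ZBTB24 and FLAG-only), LINC01468 (4.61 and 2.09 FPKM), LINC01481 (0.984 and 0.467 FPKM) and LINC01351 (0.661 and 0.347 FPKM). LINC01481 is now named PRANCR, an RNA needed for renewal of epidermal progenitors. LINC00476 (2.34 and 1.28 FPKM with FLAG-ZBTB24 and FLAG-only), LINC01032, with a log2 fold change of 0.90 in the authors' deposited table, and LINC00894 (0.697 and 0.383 FPKM) closed the 8 largest of that side. The LINC locus with the highest level of the table was LINC00493, at 56.9 FPKM with FLAG-ZBTB24 and 96.6 FPKM with FLAG-only, followed by LINC00998 at 36.4 and 52.4 FPKM. Both are now annotated as protein-coding genes for small membrane proteins, SMIM26 and SMIM30, and neither passed (q = 0.833 and 0.967 in the authors' deposited table).

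**Figure D2:**
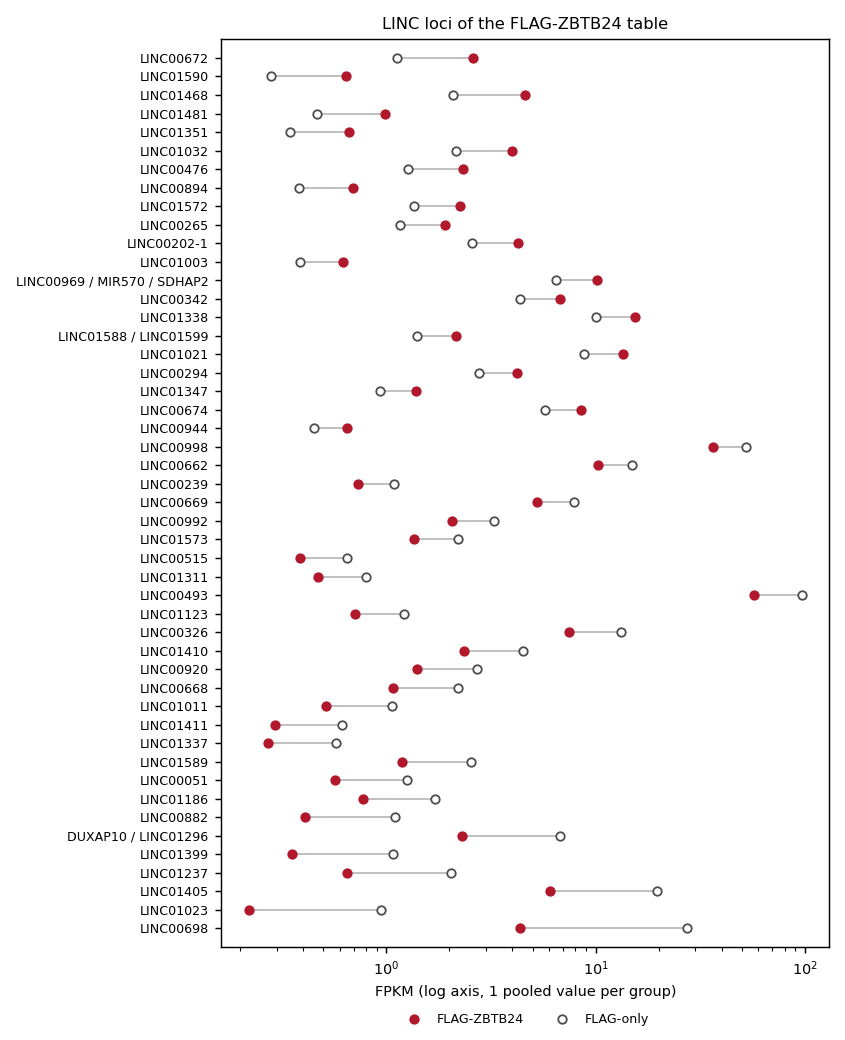
Pooled FPKM (log axis) of the 48 LINC loci in the FLAG-ZBTB24 table, with filled points for FLAG-ZBTB24 and open points for FLAG-only. The 21 loci at the top had higher and the 27 at the bottom lower values with FLAG-ZBTB24, with the widest gap at LINC00698 (4.38 against 27.4 FPKM), and 0 loci had q under 0.05.

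Under the label DNMT3BKO, 40 LINC loci were listed, higher than wild type like every row of that label. With 1 library per group there is no replicate check, and loci are described by size, as at least 4-fold higher. This held for 25 of the 40 LINC loci, beside 52.8% of all loci with that label, and the median log2 fold change was 2.63 for LINC loci and 2.12 for all. LINC loci started from lower wild-type levels, with a median of 0.289 FPKM against 0.695 FPKM over all loci of the label, and 29 of the 40 were under 1 FPKM in wild type. In the knockout their median was 3.32 FPKM, against 4.21 FPKM over all. None of the 40 had q under 0.05 in the authors' deposited table, where 0.312% of the loci with that label did.

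The largest differences came from wild-type values close to 0, so their size rests on very few fragments. LINC00202-2 was at 2.77 FPKM in the knockout and 0.00966 FPKM in wild type, LINC00494 at 4.18 and 0.0166 FPKM, and LINC00665, which has been reported to encode a micropeptide, at 9.61 and 0.0483 FPKM. Log2 fold changes were 8.16, 7.97 and 7.64 in the authors' deposited table. LINC00202-2 is now FAM238B, with a close relative in LINC00202-1 (FAM238C), at 5.64 FPKM in the knockout and 2.16 FPKM in wild type, so reads of these copies may be split. LINC00648 was at 3.76 FPKM in the knockout and 0.021 FPKM in wild type, LINC01518 at 5.01 and 0.0676 FPKM, and LINC01160 at 11.0 and 0.159 FPKM. LINC00668 was at 2.03 FPKM in the knockout and 0.0361 FPKM in wild type, and LINC00654 at 1.64 and 0.0333 FPKM. These 8 were near absent in wild type and at 1.64 to 11.0 FPKM in the knockout.

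The LINC locus with the highest knockout level was LINC00669, now MIR924HG, at 19.5 FPKM in the knockout and 6.81 FPKM in wild type, followed by LINC01503 at 15.8 and 2.54 FPKM. The smallest unadjusted p of a LINC locus in the authors' deposited table, 0.00095, belonged to 1 of 2 loci of DUXAP10 and LINC01296 on chromosome 14, at 6.37 FPKM in the knockout and 0.4 FPKM in wild type; the other was at 5.37 and 0.279 FPKM. That p compares these libraries, and the loci are near-identical copies. The nearest gene was listed for 4 of the 40 loci, necessarily as higher, and LINC01426 among them was chosen after its values were seen. RUNX1, a transcription factor gene 2930 bp from LINC01426, was at 28.2 FPKM in the knockout and 13.0 FPKM in wild type, while LINC01426 was at 3.75 and 0.335 FPKM. DKK1 was at 80.5 FPKM in the knockout and 31.5 FPKM in wild type, and LINC01468 at 3.54 and 1.69 FPKM. Neither RUNX1 nor DKK1 passed the threshold. Of marker genes, 2 of 6 stroma, 1 of 11 colon epithelium and 1 of 4 leukocyte markers were listed under this label, none past the threshold. These were VIM at 629 FPKM in the knockout with a log2 fold change of 7.37 in the authors' deposited table, PDGFRB at 0.964 FPKM in the knockout and 0.0718 FPKM in wild type, KRT20 at 1.49 and 0.558 FPKM, and CD68, given above. Their part in these differences was not tested.

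**Figure D3:**
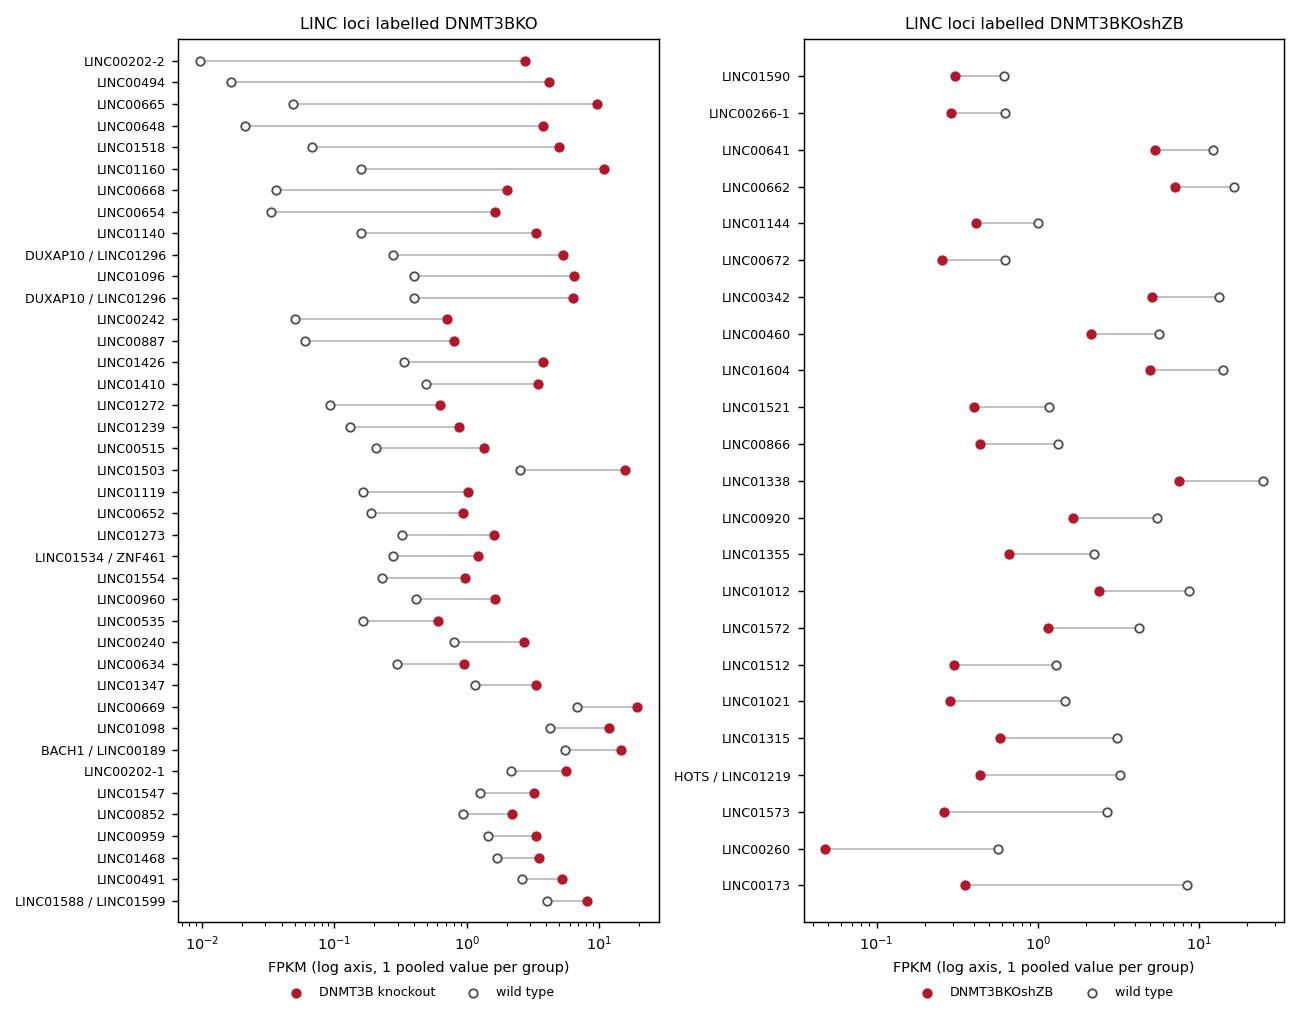
Pooled FPKM (log axis) of LINC loci in the knockout table, with filled points for DNMT3B knockout (left) or the label DNMT3BKOshZB (right) and open points for wild type. On the left all 40 loci were higher in the knockout, with 8 loci at 1.64 to 11.0 FPKM there and under 0.16 FPKM in wild type at the top; on the right all 23 were lower, a side that each label fixes.

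Under DNMT3BKOshZB, 23 LINC loci were listed, lower than wild type like every row of that label. At least 4-fold lower values were listed for 7 of them, beside 26.6% of all loci with that label, and 0 had q under 0.05 in the authors' deposited table, where 0.36% of the loci of that label did. LINC00173 had the largest difference, at 0.352 FPKM under the label and 8.45 FPKM in wild type (log2 fold change -4.58, q = 0.267 in the authors' deposited table). LINC00260 was at 0.0481 FPKM under the label and 0.568 FPKM in wild type, and LINC01573, now NALT1 and first described beside NOTCH1 in T cell leukaemia, at 0.26 and 2.69 FPKM. The locus of HOTS and LINC01219, within the H19 region, was at 0.437 FPKM under the label and 3.26 FPKM in wild type. H19 itself, listed with MIR675 under the knockout label, was at 1084 FPKM in the knockout and 1.28 FPKM in wild type. These are values of 1 library each, and H19 did not pass the threshold. LINC01315 (0.582 and 3.11 FPKM under the label and in wild type), LINC01021 (0.287 and 1.48 FPKM), known as the p53-induced RNA PURPL, and LINC01512 (0.301 and 1.3 FPKM) were the others past 4-fold, and LINC01572 (1.15 and 4.29 FPKM) stood just outside it. The wild-type level was highest at LINC01338, with 7.58 FPKM under the label and 25.0 FPKM in wild type. Of 11 colon epithelium markers 5 were listed there, all lower. The keratins KRT8 (297 and 839 FPKM under the label and in wild type) and KRT18 (329 and 739 FPKM) and the adhesion gene CDH1 (6.10 and 27.3 FPKM) were among them, and their part in these values was not tested.

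Of the 101 LINC symbols, 72 were in 1 table, 26 in 2 and 3 in all 3. The knockdown and FLAG-ZBTB24 tables share no library by their labels, and 9 LINC symbols were in both. These were 42.9% of the LINC symbols of the knockdown table and 18.4% of those of the FLAG-ZBTB24 table, against 19.03% and 21.3% for all symbols. Opposite directions were listed for 5 of the 9, beside 56.6% of all 403 shared symbols, so the LINC share is close to the share over all. LINC00698, LINC01589, LINC00326 and LINC01123 had higher values with the knockdown and lower values with FLAG-ZBTB24, and LINC01468 the reverse. For LINC00698 the log2 fold changes were 0.70 for the knockdown and -2.64 for FLAG-ZBTB24 in the authors' deposited tables. For LINC01589 they were 1.08 and -1.10, for LINC00326 0.76 and -0.83, for LINC01123 0.91 and -0.77 and for LINC01468 -1.20 and 1.14 in the authors' deposited tables. LINC00342 was higher in both (2.51 for the knockdown and 0.63 for FLAG-ZBTB24), while LINC00668 (-1.39 and -1.04), LINC01411 (-1.39 and -1.07) and LINC01405 (-0.88 and -1.70) were lower in both of the authors' deposited tables. None of these 9 passed the threshold in both.

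LINC00668 and LINC00494, shown above, had lower values with the knockdown and the widest differences from it under DNMT3BKO, where only higher rows are listed. LINC00668 had log2 fold changes of -1.39 for the knockdown and 5.81 for the knockout, and LINC00494 of -1.17 and 7.97, in the authors' deposited tables. LINC00494 has as nearest gene PREX1, which encodes an activator of Rac, at a distance of 241412 bp. PREX1 was at 2.88 FPKM with shZBTB24 and 4.14 FPKM with shNT, and at 9.73 FPKM in the knockout and 1.19 FPKM in wild type, past the threshold in neither (q = 0.328 and 0.267 in the authors' deposited tables). LINC01468 also lay on opposite sides (-1.20 for the knockdown and 1.07 for the knockout), while LINC01503 (1.37 and 2.63) and the locus of LINC01534 (1.76 and 2.13) were higher in both of the authors' deposited tables. Under the label DNMT3BKOshZB, LINC00641 was lower as in the knockdown (-1.19 and -0.87) and LINC00342 lower where the knockdown was higher (-1.39 and 2.51) in the authors' deposited tables.

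The controls themselves differed widely at several of these loci. LINC00668 was at 3.78 FPKM in shNT, 2.20 FPKM in FLAG-only and 0.0361 FPKM in wild type, a range of 105-fold. LINC00494 was at 0.882 FPKM in shNT and 0.0166 FPKM in wild type, 53.0-fold apart. LINC01468 was at 22.4 FPKM in shNT, 2.09 FPKM in FLAG-only and 1.69 FPKM in wild type, and LINC00342 at 1.16, 4.36 and 13.5 FPKM in the same order. LINC00662, at 14.9 FPKM in FLAG-only and 16.6 FPKM in wild type, and LINC01405, at 17.0 FPKM in shNT and 19.6 FPKM in FLAG-only, were close. For the 5 LINC symbols shared by the knockdown table and the DNMT3BKO rows, the controls lay a median of 3.73 apart on the log2 scale, against 1.12 for all 422 shared symbols. For the 9 shared by the knockdown and FLAG-ZBTB24 tables it was 0.84, against 0.89 for all 403. Whether the tables were normalized together is not given, so these levels are set side by side as a description only.

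**Figure D4:**
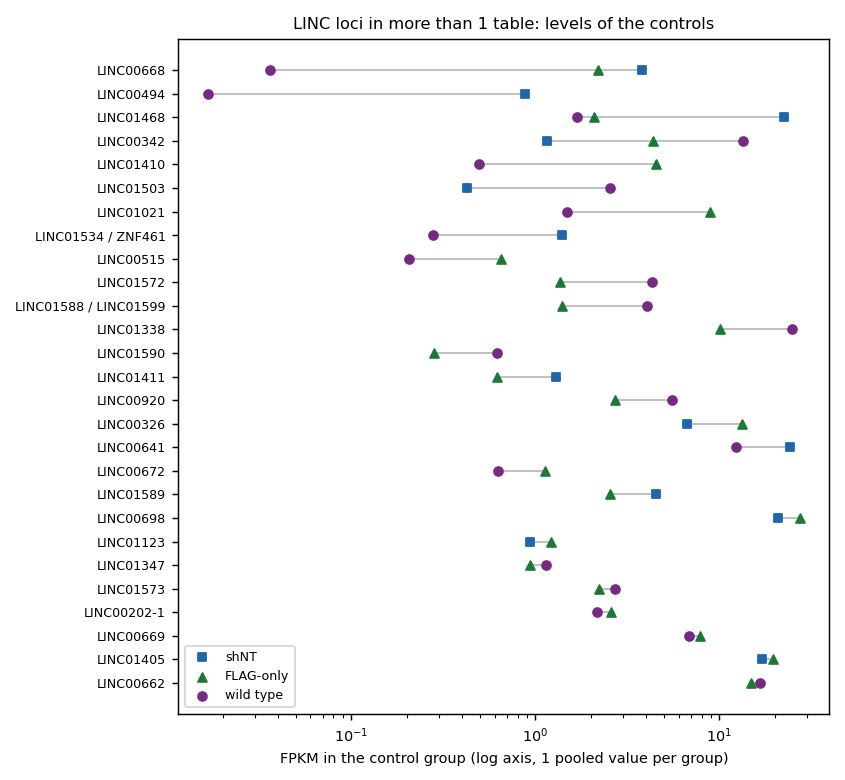
Pooled FPKM (log axis) in the control groups for LINC loci listed in more than 1 table, with squares for shNT, triangles for FLAG-only and circles for wild type; LINC01296, with several copies, is left out. The 4 rows at the top, LINC00668, LINC00494, LINC01468 and LINC00342, span 11.6-fold to 105-fold between controls.

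The other symbols found in FLAG-ZBTB24 and knockout tables were compared by their own values. LINC01410 was at 2.34 FPKM with FLAG-ZBTB24 and 4.51 FPKM with FLAG-only, and at 3.48 FPKM in the knockout and 0.495 FPKM in wild type. LINC00515 was likewise at lower FLAG-ZBTB24 and higher knockout values (log2 fold changes -0.75 and 2.70 in the authors' deposited tables), as was LINC00669 (-0.58 and 1.52). LINC00202-1 (0.72 and 1.39), LINC01347 (0.58 and 1.53) and the locus of LINC01588 and LINC01599 (0.63 and 1.01) were higher in both of the authors' deposited tables. Of 9 symbols shared between FLAG-ZBTB24 and the label DNMT3BKOshZB, 6 had higher values with FLAG-ZBTB24 and so lay opposite to the label, where 47.2% of all 246 shared symbols did. These were LINC01021 (0.61 and -2.37), LINC01572 (0.73 and -1.89), LINC01338 (0.63 and -1.72), LINC00342 (0.63 and -1.39), LINC00672 (1.20 and -1.30) and LINC01590 (1.18 and -1.01) in the authors' deposited tables. LINC01573, LINC00920 and LINC00662 had lower values with FLAG-ZBTB24.

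Other non-coding genes were grouped by name. Over all listed loci of the authors' deposited tables, 12.2% were called higher and 9.82% lower for the knockdown, and 47.3% had higher and 52.7% lower values with FLAG-ZBTB24. Of antisense RNAs, 16 loci were listed for the knockdown with 0 called, and 87 for FLAG-ZBTB24, of which 59 had higher and 28 lower values with 0 called in the authors' deposited table. Of small nucleolar RNA host genes, 4 were listed for the knockdown, with 1 called higher and 2 called lower in the authors' deposited table. Of loci named LOC, 26 were listed for the knockdown, with 3 called in each direction. Among 28 known long non-coding RNAs, 5 were listed for the knockdown, with 3 called higher and 1 lower in the authors' deposited table. The locus of PVT1, which also lists MIR1204 and MIR1206, rose to 20731 FPKM with shZBTB24, against 190 FPKM with shNT (q = 0.00493 in the authors' deposited table). The other controls were far above that shNT value, at 17124 FPKM in FLAG-only and 35822 FPKM in wild type, and the same locus was at 32687 FPKM with FLAG-ZBTB24 and 59.0 FPKM under DNMT3BKOshZB. MALAT1, an abundant nuclear speckle RNA, rose to 114 FPKM with shZBTB24, against 57.1 FPKM with shNT (q = 0.00823 in the authors' deposited table). LUCAT1, a stress-induced RNA, rose to 7.78 FPKM with shZBTB24, against 2.89 FPKM with shNT (q = 0.0113 in the authors' deposited table). The locus of GAS5, a host of small nucleolar RNAs, fell to 301 FPKM with shZBTB24, against 529.6 FPKM with shNT (q = 0.0183 in the authors' deposited table).

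ZBTB24 peaks were then placed on the LINC genes of the hg19 annotation. Peaks centred no more than 1000 bp from a start with the gene's name were counted at the promoter, and those centred elsewhere in its transcripts in the body. At the promoter, 18 of 878 LINC genes held a ZBTB24 peak (2.05%, 95% Wilson interval 1.30% to 3.22%), against 3.79% (3.56% to 4.03%) of all other names and 3.73% of all names. The share of LOC names was as low, at 1.89% (1.32% to 2.71%). In the body, 50 did (5.70%, 4.35% to 7.43%), against 4.96% (4.70% to 5.24%) of all other names and 4.99% of all names, with overlapping intervals. The intervals cover counting error only, and genes that overlap share peaks.

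The strongest promoter peak of a LINC gene was at LINC01516 on chromosome 10 (25402029 to 25402299, score 16.7, rank 440 of 6173), a gene in no expression table. Next came LINC00998 (SMIM30) with 3 peaks on chromosome 7, at 112758273 to 112758647 (score 15.8, 177 bp from the start), 112757982 to 112758193 (15.7) and 112758765 to 112758864 (7.39). LINC00944 on chromosome 12 (127256790 to 127257063, score 12.3), LINC01359 (11.0) and LINC00844 on chromosome 10 (60758855 to 60759313, score 10.6) followed. LINC00115 and LINC01128 share 1 peak on chromosome 1 (762743 to 762886, score 6.17), which lies 88 bp and 157 bp from their starts. Scores at the remaining 11 genes, LINC00235, LINC00309, LINC00346, LINC00359, LINC00397, LINC00460, LINC00905, LINC01038, LINC01351, LINC01504 and LINC01508, ran from 4.28 to 9.82.

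Of the 101 LINC symbols in a table, 4 held a ZBTB24 promoter peak (3.96%, 1.55% to 9.74%), against 5.65% (5.09% to 6.27%) of other names in a table. None of the 4 was in the knockdown table. LINC00998 (36.4 FPKM with FLAG-ZBTB24 and 52.4 FPKM with FLAG-only), LINC00944 (0.652 and 0.454 FPKM) and LINC01351 (0.661 and 0.347 FPKM) were listed for FLAG-ZBTB24 without passing. LINC00460, reported as raised in several carcinomas, was listed under DNMT3BKOshZB, at 2.14 FPKM under the label and 5.69 FPKM in wild type. Its neighbour EFNB2, an ephrin gene 111937 bp away, was at 4.93 FPKM under the label and 13.9 FPKM in wild type. Neither LINC00460 nor EFNB2 passed the threshold.

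Body peaks were found mostly in long genes, among LINC genes and other names alike. Of LINC genes with a longest transcript over 50000 bp, 38 of 188 held one (20.2%, 15.1% to 26.5%). Of other names of that length 14.9% (14.1% to 15.8%) did, and these intervals overlap. Of LINC genes up to 5000 bp, 0 of 210 did (interval up to 1.80%), against 0.283% (0.181% to 0.441%) of other names. The highest scores in LINC bodies were at LINC00536 on chromosome 8 (116990389 to 116990689, score 27.2), LINC01060 on chromosome 4 (189423934 to 189431525, 26.6), LINC01322 on chromosome 3 (164977478 to 164978093, 21.0), LINC01036 on chromosome 1 (187265504 to 187266658, 18.4) and LINC00839 on chromosome 10 (42986275 to 42986861, 16.7). None of these 5 was in an expression table. Of the symbols in a table, 9 held a body peak (8.91%, 4.76% to 16.1%), against 6.36% (5.77% to 7.01%) of other names in a table. The highest of them was at LINC01411 on chromosome 5 (173846140 to 173846765, score 16.3), a locus with lower values for both knockdown and FLAG-ZBTB24. LINC00648 and LINC01119, both listed under DNMT3BKO, held peaks with scores of 12.8 and 13.1. Under the same label, LINC00189, LINC00240, LINC00491 and LINC00535 held body peaks with scores from 5.71 to 8.32. Their higher values are fixed by that label. LINC00189 is listed as a locus shared with BACH1, at 14.7 FPKM in the knockout and 5.52 FPKM in wild type.

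Between genes, LINC genes were the nearest named gene for 280 of 3603 ZBTB24 peaks (7.77%), where 3.34% of all names are LINC. The length of the stretches between genes that each name borders was not taken into account. The 280 peaks lay far away, at a median of 81803 bp from the LINC gene, and 102 of them lay within 50 kb. The highest score, 42.2 and rank 8 of the whole list, was at a peak on chromosome 3 (164621382 to 164623043), 72944 bp from LINC01324. It was followed by peaks nearest to LINC00602 (score 41.6), LINC01317 (34.8), LINC01563 (33.7) and LINC00494 (27.4). The last, on chromosome 20 (46860462 to 46861576), lies 127635 bp from LINC00494, which was not called for the knockdown. Another, with a score of 24.3, lies 85625 bp from LINC01023, which had 0.221 FPKM with FLAG-ZBTB24 and 0.949 FPKM with FLAG-only. In all, 41 such peaks were nearest to 23 LINC genes that are in a table.

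DNMT3B peaks were nearly absent from LINC genes. In the body, 3 of 878 LINC genes held one (0.342%, 95% Wilson interval 0.116% to 0.9997%), against 22.7% (22.2% to 23.2%) of all other names and 21.9% of all names. At the promoter, 0 of 878 did (95% Wilson interval up to 0.436%), against 0.488% (0.409% to 0.581%) of all other names and 0.471% of all names, and these intervals overlap. A count of 0 of 878 therefore does not set LINC genes apart at the promoter. The 3 genes were LINC01012 on chromosome 6 with 2 peaks (27668339 to 27675585, score 3.64, and 27676691 to 27679299, score 3.23), LINC00969 on chromosome 3 (195436111 to 195436812, 3.08) and LINC00674 on chromosome 17 (66110053 to 66111693, 2.87), where the median of all DNMT3B peaks was 3.39. All 3 were in an expression table. LINC01012 was at 2.40 FPKM under the label DNMT3BKOshZB and 8.73 FPKM in wild type. LINC00969, now MIR570HG, shares its locus with SDHAP2 and was at 10.2 FPKM with FLAG-ZBTB24 and 6.44 FPKM with FLAG-only, and LINC00674 at 8.53 and 5.75 FPKM.

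The gap was seen in each length class over 5000 bp. With a longest transcript over 50000 bp, 0 of 188 LINC genes held a DNMT3B body peak (interval up to 2.002%), against 36.5% (35.3% to 37.7%) of other names. Between 20000 and 50000 bp it was 2 of 168 (1.19%, 0.327% to 4.24%), against 39.3% (38.0% to 40.6%), and between 5000 and 20000 bp 1 of 312 (0.321%, 0.0566% to 1.79%), against 18.6% (17.7% to 19.5%). Up to 5000 bp the share was 0 of 210 (interval up to 1.80%), against 0.476% (0.338% to 0.671%), and no difference was detectable. Over all lengths, 7.52% (6.04% to 9.32%) of 998 antisense RNAs and 4.44% (3.52% to 5.59%) of 1532 LOC names held a DNMT3B body peak. Of intronic transcripts 0 of 59 did (interval up to 6.11%), and of overlapping transcripts 0 of 8 (up to 32.4%). Among other names, DNMT3B body peaks were also more frequent at higher levels. With at least 10 FPKM in any group, 1 of 20 LINC symbols in a table held one (5.0%, 0.888% to 23.6%), against 39.5% (37.6% to 41.4%) of other names. At 1 to 10 FPKM it was 2 of 59 LINC symbols (3.39%, 0.935% to 11.5%), against 12.4% (11.2% to 13.7%), and under 1 FPKM 0 of 22 (interval up to 14.9%), against 2.78% (1.67% to 4.62%). At 10 FPKM or more the LINC interval ends below that of other names, but these classes were not matched for length. LINC00493 and LINC00998, both in that class, span only 2131 and 1865 bp. Levels are those of the whole locus, and the 1 LINC symbol with a peak there, LINC00969, shares its locus with SDHAP2. The part of length in this difference was not tested. The levels of the 777 LINC genes in no table are not known, and the part of their expression in the gap was not tested.

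**Figure D5:**
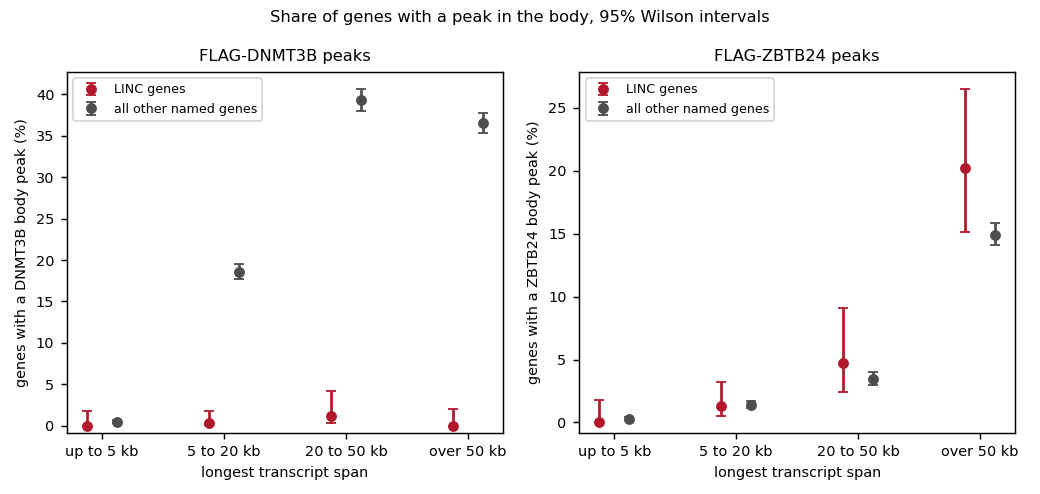
Share of genes with a DNMT3B (left) or ZBTB24 (right) peak in the body (%), by longest transcript span, for LINC genes and all other named genes; points are shares and bars are 95% Wilson intervals. DNMT3B shares of LINC genes stay at or under 1.19% while those of other genes reach 39.3%. ZBTB24 shares rise with span in both sets, to 20.2% for LINC genes and 14.9% for other genes over 50 kb, with overlapping intervals.

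In structure, LINC genes in a table were shorter in span than those in no table. Their median longest transcript covered 10796 bp with 4 exons and 1597 spliced bases, and that of the unlisted LINC genes was 15050 bp with 4 exons and 1333 spliced bases. Single-exon genes were 11 of the 101 and 43 of the 777. By RefSeq, 93 of the 101 symbols are long non-coding RNAs today, 6 are protein-coding genes and 2 are pseudogenes, and 27 have another name. The protein-coding ones are LINC00341 (SYNE3), LINC00493 (SMIM26), LINC00634 (SMIM45), LINC00672 (LASP1NB), LINC00959 (C10orf143) and LINC00998 (SMIM30).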

How the data were processed

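Per the submitters' processing notes, HISAT2, StringTie, Cufflinks and MACS2 were used on build hg19, without versions. The authors deposited 1 pooled FPKM value per group and locus, and log2 fold changes that match the log2 of the FPKM ratio. The p-value, the q-value and a test statistic score of each locus are the authors' deposited ones. Each deposited peak list is merged per factor and gives 1 score per peak, of a kind no label names. Library values and depth are unknown, so no test between libraries was run. Labels do not say that replicates were separate cultures, so the p-values may measure technical spread only.

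The members, the lists and the rule for named genes were chosen with earlier results of these data known. LINC loci were named if called, among the 8 largest differences per direction with at least 0.5 FPKM, in 2 or more tables, highest in level, or holding the peaks described. Genes were joined by symbol, and loci with several symbols counted once. Peak placement was tested on simulated data. Python 3.11.15, pandas 2.3.3 and scipy 1.17.1 were used. Current names and promoters came from RefSeq (GRCh38.p14) by symbol or synonym, with 101 of 101 symbols matched, and no coordinate was converted between builds.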

Additional observations from a re-analysis of the deposited data

How the results depend on the processing

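No paired analysis was possible because the tables hold 1 pooled value per group and no replicate columns, and for the same reason no replicate could be left out. Of 52 alternatives to 15 results, 40 stayed within 1.5 times the reported count and 12 did not. Several of the 40 were fixed in advance, since a stricter filter on a count of 0 can only return 0. At an unadjusted p under 0.05, called LINC loci numbered 12 higher and 9 lower for the knockdown in place of 2 and 3. These are all 21 listed LINC loci. No listed locus of the knockdown had a p above 0.0549 in the authors' deposited table, so this count mostly repeats the listing. For FLAG-ZBTB24 the called loci numbered 1 higher and 2 lower in place of 0 and 0. With log2 of (FPKM + 1), FLAG-ZBTB24 loci differing by more than 0.5 numbered 9 higher and 17 lower in place of 21 and 27. On the same scale, loci differing by at least 2 numbered 9 in place of 25 for the DNMT3B knockout and 1 in place of 7 for DNMT3BKOshZB, as most of these have low levels. With only peaks above the median score of their list, LINC genes with a ZBTB24 peak numbered 8 in place of 18 at promoters and 25 in place of 50 in bodies, and those with a DNMT3B body peak 1 in place of 3. With all transcripts of the assembled locus, which can take in neighbouring genes, 9 LINC genes held a DNMT3B body peak in place of 3. Unknown depth limits every low FPKM value.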

Other observations

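LINC genes with any ZBTB24 peak at the promoter or in the body numbered 67 of 878. By count, chromosome 13 had the most, with 13 of 115 LINC genes (11.3%), followed by chromosome 1 with 9 of 71 (12.7%) and chromosome 3 with 7 of 57 (12.3%). LINC00397 on chromosome 13 was the 1 LINC gene with both a promoter and a body peak.

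Nearest genes of listed LINC loci were in the same table for 6 of 21 loci of the knockdown, of which 3 lay on the same side. Among these 3 is LINC00341 with SYNE3, under which RefSeq now lists it. LINC01589 was at 9.56 FPKM with shZBTB24 and 4.53 FPKM with shNT, while its neighbour FBLN1, which encodes an extracellular matrix protein, 3298 bp away, was at 7.57 FPKM with shZBTB24 and 14.5 FPKM with shNT (q = 0.0183 in the authors' deposited table). MSX2, a homeobox gene 197433 bp from LINC01411, was at 19.2 FPKM with shZBTB24 and 11.5 FPKM with shNT (q = 0.0817 in the authors' deposited table), while LINC01411 was at 0.49 and 1.29 FPKM. For FLAG-ZBTB24 the nearest gene was listed for 5 of 48 loci, of which 4 lay on the same side. Among these 4 is LINC01237 with LOC102723927, which it overlaps. The share over all listed loci was not counted, so the neighbour counts are description only.

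Between genes, 14 of 462 DNMT3B peaks (3.03%) had a LINC gene as nearest named gene, close to the 3.34% of all names that are LINC. Of the 14, 5 were nearest to LINC01000 on chromosome 7, with scores from 2.99 to 3.55.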
